A study of Mus musculus with 20 samples.

Results

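Transcripts of 8 genes that drive or restrain entry into the cell cycle were followed across all single-cell RNA-seq (scRNA-seq) libraries of the study, and open chromatin near the same genes was followed in its ATAC-seq libraries. The genes were Cdkn2a, Cdkn1a and Cdkn1b, which encode inhibitors of cyclin-dependent kinases (CDKs), Trp53 and Mdm2, Myc, and the D-type cyclins Ccnd1 and Ccnd2. They were selected by name, with their levels in B-MF and Mo-MF in view, and all 8 were among the 15855 genes measured in cultured cells and the 15333 genes measured in tumor cells. B-MF are macrophages that formed from B cells of mouse bone marrow (BM) during culture in medium conditioned by 4T1.2 mammary cancer cells, a medium that contains M-CSF. Mo-MF formed from BM monocytes in the same medium, so both cultures shared the cancer medium and no culture without it was sequenced here. Tumor libraries held cells sorted as tumor-associated macrophages (TAM) from 4 mice bearing 4T1.2 mammary cancer. The 12 ATAC-seq libraries came from B-cell precursors (BMBP) of naïve mice, with 3 libraries for each combination of organ (BM or spleen) and CSF1R status (+ or −), although the labels call these cells macrophages. The study used young female mice, took B cells for such cultures from C57BL/CJ or BALB/CJ animals and grew 4T1.2 tumors in BALB/cJ animals among others, but which strain gave each library is not given in the sources used here. Nothing in the labels says whether replicate libraries of a culture came from separate mice, so each test below measures the spread between libraries.

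Cells divide when cyclin D with CDK4 or CDK6, and then cyclin E with CDK2, phosphorylate the retinoblastoma protein and release E2F factors. Cdkn2a encodes 2 unrelated proteins from separate first exons, p16INK4a, which blocks CDK4 and CDK6, and p19ARF, which binds Mdm2 and frees p53 from it. Mdm2 is the ubiquitin ligase that degrades p53, p53 in turn activates Cdkn1a (p21) and Mdm2, and Cdkn1b encodes the related inhibitor p27. Myc is a transcription factor that drives growth and ribosome production, and forced Myc is a textbook inducer of the ARF protein in mouse cells. Because the libraries were made with a 3′ kit and both Cdkn2a transcripts share their last exons, p16INK4a and ARF transcripts cannot be told apart in the scRNA-seq values.

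RefSeq promoters (GRCm38.p6, 300 bases around the start) were found for 5 of the 8 genes, with 7 promoters in all. Those of Cdkn2a, Cdkn1a and Trp53 are printed because the peaks described below resolve the separate starts of Cdkn2a and Cdkn1a and because a motif match was found in one promoter of each gene. Letters in capitals mark those matches, and everything else is in lower case, written 5′ to 3′ on the strand of the gene.
Cdkn2a ARF start, chr4:89294570-89294869, minus strand: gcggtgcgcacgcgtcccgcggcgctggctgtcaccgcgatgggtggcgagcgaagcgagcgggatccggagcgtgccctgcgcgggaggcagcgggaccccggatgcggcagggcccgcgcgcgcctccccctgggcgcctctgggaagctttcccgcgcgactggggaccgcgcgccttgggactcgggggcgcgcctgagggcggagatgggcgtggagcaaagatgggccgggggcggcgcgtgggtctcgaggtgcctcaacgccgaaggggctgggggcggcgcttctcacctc
Cdkn2a p16INK4a start, chr4:89282143-89282442, minus strand: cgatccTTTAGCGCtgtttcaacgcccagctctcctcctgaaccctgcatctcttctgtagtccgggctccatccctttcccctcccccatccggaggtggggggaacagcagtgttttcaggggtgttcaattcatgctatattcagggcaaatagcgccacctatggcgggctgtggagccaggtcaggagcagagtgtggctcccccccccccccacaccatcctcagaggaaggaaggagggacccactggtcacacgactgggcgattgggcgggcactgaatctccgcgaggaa
Cdkn1a outer start, chr17:29090729-29091028, plus strand: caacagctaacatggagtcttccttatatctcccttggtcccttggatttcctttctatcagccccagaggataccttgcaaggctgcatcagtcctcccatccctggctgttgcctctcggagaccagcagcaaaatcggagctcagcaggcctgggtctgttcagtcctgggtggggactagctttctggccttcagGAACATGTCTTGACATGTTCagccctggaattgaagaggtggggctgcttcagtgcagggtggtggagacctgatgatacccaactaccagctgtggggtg
Cdkn1a inner start, chr17:29093519-29093818, plus strand: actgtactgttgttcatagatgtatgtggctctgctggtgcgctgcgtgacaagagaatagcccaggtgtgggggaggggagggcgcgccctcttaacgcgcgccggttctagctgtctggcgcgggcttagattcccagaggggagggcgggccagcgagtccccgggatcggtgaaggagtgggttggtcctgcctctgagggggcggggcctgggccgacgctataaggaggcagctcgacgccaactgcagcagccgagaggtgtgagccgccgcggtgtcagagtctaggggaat
Trp53 start, chr11:69580109-69580408, plus strand: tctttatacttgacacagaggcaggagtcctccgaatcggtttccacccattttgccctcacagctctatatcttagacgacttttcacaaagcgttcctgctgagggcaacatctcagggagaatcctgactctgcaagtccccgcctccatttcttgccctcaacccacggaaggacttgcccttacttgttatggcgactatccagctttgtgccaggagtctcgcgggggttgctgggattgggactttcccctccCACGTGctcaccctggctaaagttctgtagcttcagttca

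The 2 Cdkn2a promoters differed in base composition. The ARF promoter was 77% G or C with 45 CpG dinucleotides, the p16INK4a promoter was 60.3% G or C with 12, and the median over 32851 promoters was 52.7% with 7. The 4 motifs searched, on both strands, were the E-box CACGTG to which Myc binds, the E2F motif TTTNGCGC, the AP-1 motif TGACTCA and the p53 response element. The p53 element was added to the search after the Cdkn1a sequence had been read. The capitals in the p16INK4a promoter mark an E2F match (TTTAGCGC) whose first base lies at position −244 from the start, a motif held by 1.38% of all promoters. Those in the outer Cdkn1a promoter mark a p53 response element (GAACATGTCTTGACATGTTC) beginning at position −51, which 29 of all promoters hold (0.0883%). The Trp53 promoter held an E-box (CACGTG) that begins 10 bases past the first base of the transcript, as 7.15% of promoters hold one. AP-1 matches, held by 5.2%, were found in none of the 7. A match describes letters in this window and was not tested as a binding site.

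The 2 B-MF libraries held 5237 and 5326 cells, the Mo-MF libraries 4846 and 5389, and the 4 tumor libraries between 2318 and 3180. Values are the authors' depth-corrected transcript counts, converted back from the deposited logs and averaged over the cells of a library. Corrected totals had medians between 18350 and 19469 per cell in culture and between 7651 and 8266 in tumor, and the 2 tables were corrected separately, so levels are compared within a table and only set side by side across them. All 8 macrophage markers were detected in every library. In culture 7 of them had higher values in B-MF, among them Adgre1 (6.57 to 6.64 counts per cell against 4.98 to 5.0 in Mo-MF), and Apoe was lower, at 146 and 139 against 507 and 499. By clusters, whose names rest on marker genes that set a cluster apart from the others, 1698 and 1832 B-MF cells and 72 and 78 Mo-MF cells were monocyte/macrophage-like, while 3528 and 3487 B-MF cells and 4254 and 4795 Mo-MF cells stayed unnamed. Cells of other types were present in all libraries and few in B-MF. Mo-MF held 520 and 516 neutrophil-like cells against 11 and 7 in B-MF. Each tumor library held 1154 to 1694 neutrophil-like cells beside 577 to 1639 monocyte/macrophage-like cells, so the label TAM fits only some of the sorted cells. Where values below are given without cells of other types, the neutrophil-like clusters were left out in culture and the neutrophil-, B-cell-, T/NK- and dendritic-like clusters in tumor, while unnamed clusters were kept, including the mixed culture cluster described below and a tumor cluster of 257 cells led by collagen genes. The summed level of 5 neutrophil markers was 0.724 and 1.06 in B-MF, against 117 and 146 in Mo-MF and 440 to 773 in tumor. The immunoglobulin gene Igkc was at 3.26 counts per cell in Mo-MF 1. Mitochondrial transcripts made up 7.92% and 7.70% of counts in B-MF, 5.07% and 5.24% in Mo-MF, with 2.07% to 2.33% in tumor, and any 2 libraries shared 0 to 14 cell barcodes.

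Of the 8 genes, Cdkn2a stood furthest apart between B-MF and Mo-MF. In B-MF 1 and B-MF 2 the mean corrected count per cell was 0.329 and 0.263 (0.296 ± 0.047, SD, n = 2). In Mo-MF 1 and Mo-MF 2 it was 0.0031 and 0.0045 (0.00377 ± 0.00096, SD, n = 2), which rests on 15 and 24 counts. Every B-MF value lay far above both Mo-MF values. At least 1 Cdkn2a count was found in 14.5% of cells of B-MF 1 (95% Clopper-Pearson interval 13.5 to 15.5%) and 12.9% of B-MF 2, against 0.248% (0.128 to 0.432%) and 0.297% in Mo-MF, with intervals that cover counting error only. When each cell was thinned to 3000 counts the shares were 3.95% and 3.68% in B-MF against 0.041% and 0.019% in Mo-MF. Positive B-MF cells carried 2.28 and 2.04 counts on average, and a single cell reached 26. Tumor libraries ranged from 0.0047 to 0.0075 counts per cell, with 0.377% to 0.566% of cells positive, at a lower depth. Shares in neutrophil-like cells, taken as a background, were 0.385% and 0% in Mo-MF (median totals 17537.5 and 17803.5) and 0% to 0.177% in tumor (7482 to 7518). The 0% of Mo-MF 2 was 0 of 516 cells, which allows a share of up to 0.581%. Neither Mo-MF share over all cells can be told apart from its background at this depth, and neither is read as expression throughout the culture. The few Mo-MF counts were unevenly spread, with higher levels in a dividing cluster and a small mixed cluster described below. The B-MF shares lay far above both backgrounds. B-MF held too few neutrophil-like cells (11 and 7) to measure a background of its own.

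Cdkn2b, the neighbour of Cdkn2a that encodes the CDK4 and CDK6 inhibitor p15INK4b, also had higher values in B-MF. It averaged 0.060 and 0.055 counts per cell there, against 0.0035 and 0.0022 in Mo-MF, and was below the level required for a test. Cdkn2c, encoding p18INK4c, was at 0.593 and 0.512 in B-MF against 0.270 and 0.253 in Mo-MF.

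**Figure D1:**
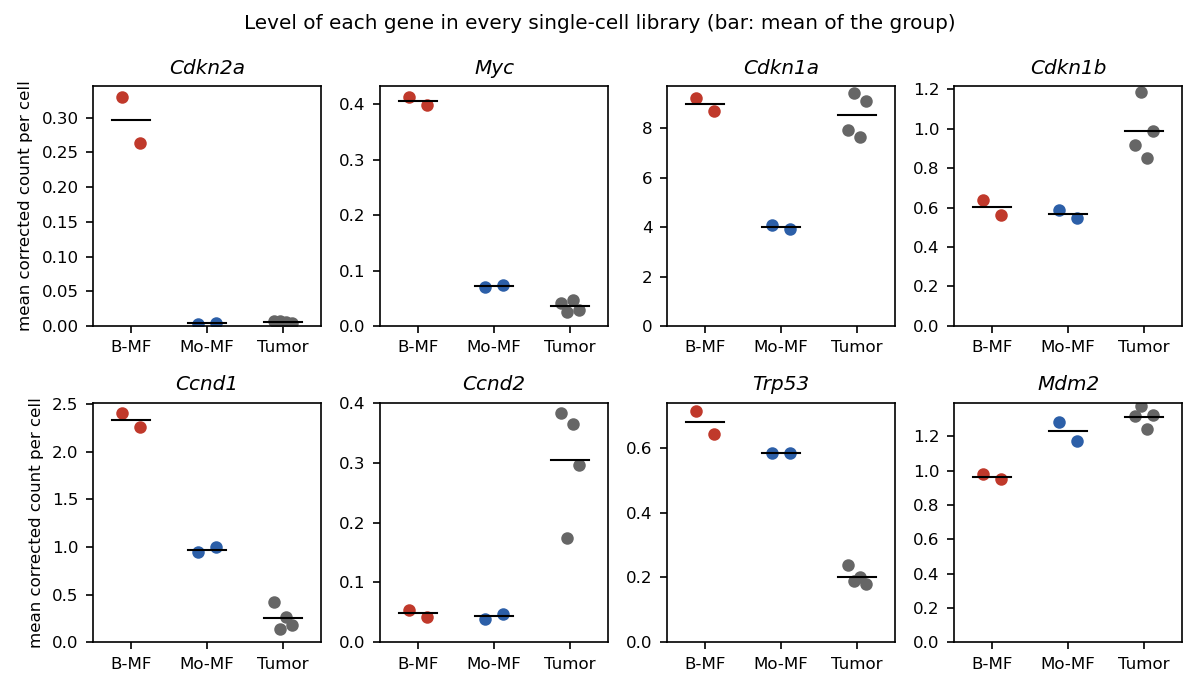
Mean corrected count per cell (vertical axis, from 0, each panel with its own scale) of each of the 8 genes in 2 B-MF, 2 Mo-MF and 4 tumor libraries, each point a library and each bar the mean of its group. B-MF lay above Mo-MF for Cdkn2a, Myc, Cdkn1a and Ccnd1, Mo-MF lay above B-MF for Mdm2, and tumor values come from a separately corrected table.

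Cdkn1a was detected in nearly every B-MF cell (94.9% and 95.3%, against 83.9% and 85.2% in Mo-MF). Its level was 9.24 and 8.70 counts per cell in B-MF, 2.24 times the 4.09 and 3.91 of Mo-MF, with no overlap. Tumor libraries held 7.64 to 9.44, and without clusters of other cell types 6.49 to 7.56. Cdkn1b was nearly level between the cultures, at 0.639 and 0.563 in B-MF against 0.590 and 0.547 in Mo-MF. This near equality held only with all cells included, since without neutrophil-like cells the Mo-MF values were 0.473 and 0.462 and the log2 difference moved from 0.07 to 0.31. Neutrophil-like cells of Mo-MF carried 0.961 and 1.96 Cdkn1b counts per cell in their 2 clusters. Tumor libraries ranged from 0.853 to 1.18.

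Trp53 transcripts differed little between the cultures, with 0.712 and 0.643 counts per cell in B-MF against 0.582 and 0.584 in Mo-MF, a ratio of 1.16. The libraries did not overlap with all cells included, and without cells of other types the Mo-MF values were 0.612 and 0.611 and the log2 difference went from 0.19 to 0.13. Mdm2 was the only member that was lower in B-MF, at 0.983 and 0.948 against 1.28 and 1.17 in Mo-MF, a ratio of 0.786. A single cell of Mo-MF 1 held 201 Mdm2 counts. In tumor libraries Trp53 lay between 0.179 and 0.238 and Mdm2 between 1.24 and 1.37.

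Myc and Ccnd1, which act at the start of the cycle, were both higher in B-MF. Myc was at 0.414 and 0.399 counts per cell in B-MF, 5.68 times the 0.070 and 0.073 of Mo-MF, and 23.7% and 22.2% of B-MF cells were positive against 5.43% and 5.36% of Mo-MF cells. Ccnd1 was at 2.40 and 2.26 in B-MF, 2.39 times the 0.947 and 1.0 of Mo-MF. For both genes the 2 libraries of a culture lay close together and the cultures did not overlap. In culture the summed level of 10 early response and heat shock genes, which change with cell handling, was also higher in B-MF. It was 60.1 and 57.4 counts per cell against 31.4 and 29.8 in Mo-MF. In tumor it was 44 to 64.7, and none of the 10 was at 0. Egr1 was at 7.4 and 6.97 against 1.27 and 1.10, and Fos, Fosb, Junb, Ier2 and Dusp1 were also higher in B-MF. Jun (3.80 and 3.87 against 4.15 and 4.06) and Atf3 (4.78 and 4.95 against 5.29 and 5.11) were lower. So was Hspa1a (0.030 and 0.021 against 0.044 and 0.039), and Hspa1b overlapped. Among tumor libraries, with all cells included, the highest sum, in Tumor 3, stood beside the lowest Myc and Ccnd1 and the highest Cdkn1a. Without cells of other types Tumor 3 was still lowest in Ccnd1 (0.232) but was also lowest in Cdkn1a (6.49). Myc was then lowest in Tumor 5 (0.042 against 0.047 in Tumor 3). The part of the early response and heat shock genes in the members' differences was not tested. In the tumor table Myc was at 0.026 to 0.046 counts per cell, and Ccnd1 there ranged from 0.142 in Tumor 3 to 0.424 in Tumor 2. Ccnd2, a further D-type cyclin, was sparse in culture, at 0.055 and 0.042 in B-MF against 0.039 and 0.048 in Mo-MF, and there the groups overlapped. It was found in 8.67% to 14.7% of tumor cells, with means of 0.175 to 0.383.

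On the log2 scale with 0.1 added to each mean, the differences of B-MF from Mo-MF were 1.93 for Cdkn2a, 1.56 for Myc, 1.18 for Ccnd1, 1.15 for Cdkn1a, 0.19 for Trp53, 0.07 for Cdkn1b and −0.32 for Mdm2. The first of these is small for the levels behind it, since the added 0.1 exceeds the level of Cdkn2a in Mo-MF. These values helped choose the genes and are given without a test, and Ccnd2 was below the level required for the fit. Over all 8633 genes in the same fit, 22.6% were called higher and 16.9% lower in B-MF at an adjusted p under 0.05 (limma), with a median log2 difference of 0.02.

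Among cells of B-MF, the members were unevenly spread. Clusters were built without these 8 genes and are described by their leading genes. Cluster 0 (4776 B-MF cells, led by Fabp3 and Gpx3) carried 0.426 Cdkn2a, 0.611 Myc and 3.07 Ccnd1 counts per cell and held 65.1% of all Cdkn2a counts of B-MF. Cluster 1 (3530 cells, macrophage-like, led by the antigen presentation genes H2-Eb1 and Cd74) carried less of these 3 genes, at 0.151, 0.123 and 0.783, and more Cdkn1a, at 11.6 against 7.83. The 2 libraries gave 2372 and 2404 cells to cluster 0 and 1698 and 1832 to cluster 1. As all 3 genes and the clusters come from the same cells, these levels are a description.

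The 2 large dividing clusters of B-MF lay on either side of the B-MF mean of Cdkn2a (0.296). Cluster 7, led by the mitotic genes Cenpf and Ube2c, had 0.510 Cdkn2a counts per cell in 471 cells, beside 11.4 Mki67 counts. Cluster 8, led by the replication licensing genes Mcm6 and Mcm5, was highest in Myc (1.16) and Ccnd1 (8.38) among the large B-MF clusters, lowest in Cdkn1a (5.04) and had 0.201 Cdkn2a counts per cell in 368 cells. In Mo-MF the same clusters held 0.039 and 0.004 Cdkn2a counts per cell, while Ccnd1 reached 6.50 and Myc 0.430 in cluster 8 and Mdm2 2.33 in cluster 7. Cluster 5, set apart by mitochondrial RNA, was low in Cdkn2a (0.061 in 1271 B-MF cells).

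A small mixed cluster of 34 B-MF and 28 Mo-MF cells, with immunoglobulin, basophil and fibroblast genes among its leading genes, stood apart. Among the clusters of B-MF it had the highest means of several genes, among them 4.38 Cdkn2a, 1.74 Cdkn2b, 13.6 Ccnd1 and 3.53 Ccnd2 counts per cell. They also carried 2.18 Mki67 and 2.97 Top2a counts per cell, against 1.67 and 1.84 in cluster 8. These 34 cells held 4.77% of the Cdkn2a counts of B-MF, and the 28 Mo-MF cells held 33.3% of those of Mo-MF. Without the cluster, Cdkn2a in Mo-MF averaged 0.00253.

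**Figure D2:**
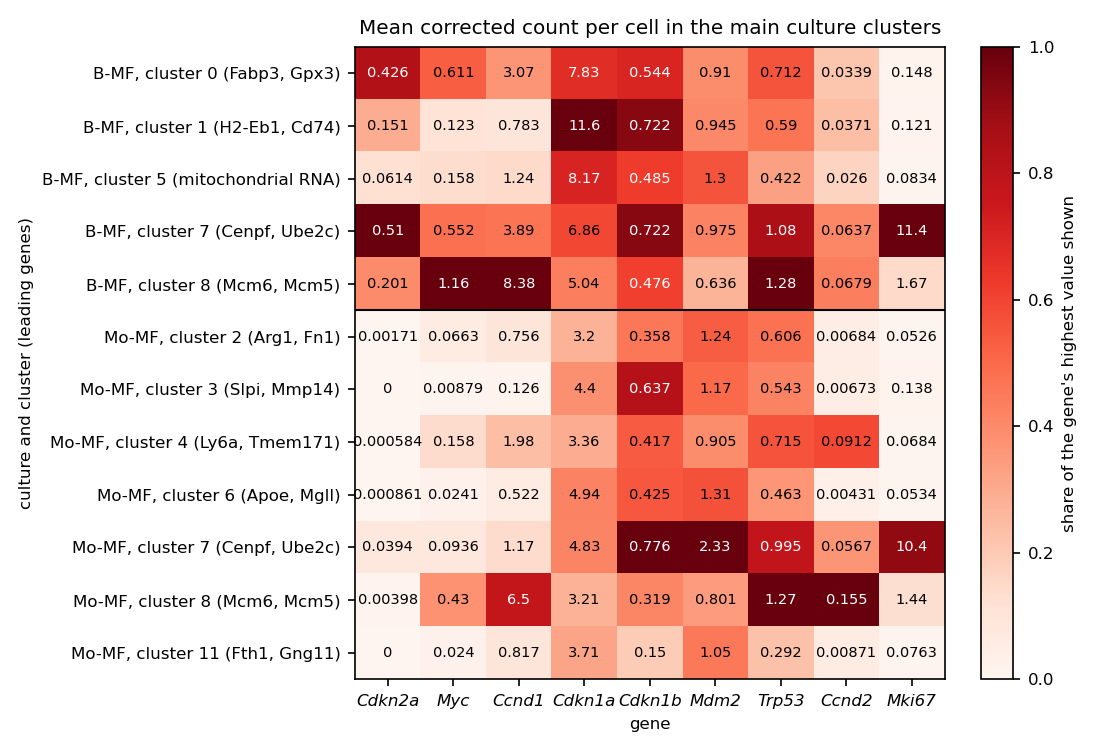
Mean corrected count per cell of the 8 genes and Mki67 (columns) in the main clusters of each culture (rows, with 2 leading genes), with colour showing each value as a share of the highest value shown for that gene. Cdkn2a was highest in clusters 0 and 7 of B-MF and at most 0.039 in the Mo-MF clusters shown, and Myc and Ccnd1 were highest in cluster 8 of B-MF.

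In tumor, the C1q-high macrophage-like cluster (598 cells, of which 337 came from Tumor 2) stood apart from the other macrophage-like clusters. It carried 1.89 Ccnd1 and 0.042 Cdkn2a counts per cell and only 2.11 Cdkn1a, with 0.881 Mki67. The cluster led by Timd4 and MHC class II genes (738 cells) held 1.52 Ccnd2 and 0.958 Ccnd1 counts per cell. Outside the macrophages, T/NK-like cells had 3.95 and dendritic-like cells 2.56 Ccnd2 counts per cell, and the latter had the highest Cdkn2a (0.165) and Cdkn2b (0.369) among tumor clusters. The highest Cdkn1a values, 12.4 and 13.3, were in 2 neutrophil-like clusters (2070 and 1530 cells), and by class the per-library range was 8.99 to 11.4 in neutrophil-like and 5.58 to 7.28 in monocyte/macrophage-like cells.

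Cells with Cdkn2a transcripts were compared with the other cells of the same B-MF library, leaving out neutrophil-like cells. Myc was detected in 34.6% and 35.9% of the Cdkn2a-positive cells (757 and 685 cells) and in 21.8% and 20.2% of the rest. Ccnd1 was detected in 74.9% and 75.8% of positive cells and in 56.2% and 54.1% of the others, with averages of 4.06 and 3.91 counts against 2.12 and 2.02, and Trp53 was detected in 58.1% and 51.4% against 46.3% and 40.2%. Cdkn1a was about level, at 9.28 and 8.87 against 9.25 and 8.68. In both libraries the share of cells with Myc, Ccnd1 or Trp53 was thus higher among Cdkn2a-positive cells, which had corrected totals with medians of 19825 and 19501 against 19137 and 18315. With the mixed cluster also left out, the shares in Cdkn2a-positive cells were 34.1% and 35.1% for Myc, 74.4% and 75.4% for Ccnd1 and 57.3% and 51.0% for Trp53.

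Across single cells, correlations of the log counts were weak and are given as a description, since cells share a library and its depth. Within B-MF libraries (5226 and 5319 cells) Pearson's r was 0.344 and 0.317 between Myc and Ccnd1, 0.250 and 0.205 between Cdkn1a and Mdm2, and −0.148 and −0.157 between Myc and Cdkn1a. The pair of p53 targets, Cdkn1a and Mdm2, also gave 0.150 and 0.178 in Mo-MF and 0.208 to 0.280 in the tumor libraries. Myc and Ccnd1 gave 0.253 and 0.296 in Mo-MF but 0.033 to 0.162 in tumor, where Ccnd1 was instead paired with Ccnd2 (0.268 to 0.386). Cdkn2a correlated with Ccnd1 at 0.173 and 0.164 and with Myc at 0.10 and 0.097. B-MF cells with Myc averaged 4.4 and 4.21 Ccnd1 counts against 1.78 and 1.71 in cells without it.

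The 3 genes whose levels ran most alike to each member across B-MF cells, by mean r over the 2 libraries, were as follows. For Cdkn2a they were Mmp12 (0.191), a macrophage elastase, Cd36 (0.186), a lipid scavenger receptor, and Hmga2 (0.181), a chromatin protein. For Myc they were Ccnd1 (0.330), the chemokine Ccl2 (0.275) and the actin gene Actb (0.267), and for Ccnd1 lipoprotein lipase Lpl (0.384), the glycolytic enzyme Pkm (0.370) and Actb (0.367). Cdkn1a ran with Phlda3 (0.389), Laptm5 (0.380) and Btg2 (0.316), of which Phlda3 and Btg2 are known p53 targets. Mdm2 ran with Cdkn1a (0.228), Phlda3 (0.189) and the p53 target Ccng1 (0.160). The likeness was least for Cdkn1b, with Txnip (0.114), Numa1 (0.111) and Crebrf (0.108), and for Trp53, with Pfn1 (0.180), Ppia (0.173) and Actb (0.162). Ccnd2 ran with Cald1 (0.365), Sparc (0.358) and Acta2 (0.343), contractile and matrix genes, but this rested on the mixed cluster, whose 34 cells held 23.4% of the Ccnd2 counts of B-MF. Without that cluster the mean r of Ccnd2 was 0.08 with Cald1, −0.003 with Sparc and 0.10 with Acta2.

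Genes of the surrounding pathways were then compared between B-MF and Mo-MF with limma. Of 107 listed genes that are not members, 90 were measured well enough, 32 were higher and 12 lower in B-MF, beside the 22.6% and 16.9% of all genes given above. Of 4 CDK inhibitors tested, Cdkn2c (log2 difference 0.85, adjusted p = 3.6e-05) and Cdkn3 (0.22, adjusted p = 0.016), a phosphatase that acts on CDKs, were higher, and Cdkn1c (p57, −1.25, adjusted p = 0.00012) and Cdkn2d (p19INK4d, −0.20, adjusted p = 0.0246) were lower. The difference in Cdkn2d turned without cells of other types, at 0.832 and 0.766 counts per cell in B-MF against 0.731 and 0.736 in Mo-MF (0.11, adjusted p = 0.17). Cyclins and CDKs leaned one way, with 5 of 12 higher and 0 lower (7 had an unadjusted p under 0.05), led by Cdk1 (0.38), the mitotic kinase, Cdk6 (0.38), the partner of D-type cyclins, and Ccnb2 (0.27). Of 10 Rb and E2F genes, 4 were higher and 0 lower (5 with an unadjusted p under 0.05), among them Tfdp2 (0.36), E2f5 (0.24) and Rbl2 (0.19).

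In the Myc network, which holds its partners and antagonists, 1 of 8 genes was higher and 4 were lower in B-MF. The Myc antagonist Mxd4 was higher (0.74) and Mxi1 lower (−0.31), while Mxd1, a further antagonist, was lower with all cells (−1.0, adjusted p = 4.8e-05) and not called without neutrophil-like cells (0.15, adjusted p = 0.127). Among textbook MYC targets 9 of 17 were higher and 0 lower (9 with an unadjusted p under 0.05), with a median log2 difference of 0.19. Those that led were Ncl (0.30), Srm (0.29) and Npm1 (0.29), of which Ncl and Npm1 encode nucleolar proteins and Srm spermidine synthase.

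Of 21 genes of the p53 list, 7 were higher and 4 lower in B-MF, with a median of 0.07, beside 22.6% and 16.9% of all genes. Phlda3 was higher (1.23, adjusted p = 6.4e-06), at 0.861 and 0.724 counts per cell against 0.278 and 0.279 in Mo-MF, while the stress genes Gadd45a (−1.58, adjusted p = 1.3e-06) and Gadd45b (−1.28, adjusted p = 1.2e-06) were lower. Of 18 proliferation genes, 4 were higher and 2 lower. Stmn1, a tubulin regulator, was higher (0.44), Pcna, the replication clamp, was lower (−0.54), and Hmgb2 was lower with all cells (−0.48) and not called without cells of other types (0.06, adjusted p = 0.457). Mki67 was at 0.749 and 0.635 counts per cell in B-MF against 0.566 and 0.576 in Mo-MF, and differed by 0.24 on the log2 scale (SE 0.07, adjusted p = 0.0313). This Mki67 call was lost without either Mo-MF library (adjusted p = 0.0986 and 0.0618), and the number of pathway genes called higher ranged from 17 to 52 as single libraries were left out.

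Mki67, which encodes the proliferation antigen Ki-67, was detected in 15.7% and 15.2% of B-MF cells, 11% and 10.9% of Mo-MF cells and 5.87% to 7.52% of tumor cells. Without cells of other types the shares were 11.3% and 11.1% in Mo-MF and 10% to 13.6% in tumor, at a lower depth in tumor. With each cell thinned to 3000 counts, the shares of all cells were 5.71% and 5.16% in B-MF, 4.44% and 4.71% in Mo-MF and 3.27% to 3.96% in tumor. Each library was split into cells with and without a Mki67 count (533 to 824 and 4313 to 4804 cells in culture), and the 2 sets were compared with the library as a block, a contrast that did not choose the members. Of 7 members tested in the cultures, 5 were higher in Mki67-detected cells, which has to be read against the 70.1% of all 8983 genes that were called higher and 6.06% called lower. The 5 include Cdkn2a, which passed the filter on low values only through B-MF and is read below for B-MF alone. Detected cells also had more genes detected, with medians of 4174 to 4498 against 3308.5 to 3803, and the median gene was 0.20 higher on the log2 scale.

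Ccnd1 stood highest among the members, with a log2 difference of 0.65 (SE 0.04, adjusted p = 1.8e-05) and values of 0.70, 0.55, 0.72 and 0.64 in B-MF 1, B-MF 2, Mo-MF 1 and Mo-MF 2. Trp53 followed at 0.52 (SE 0.04, adjusted p = 4.6e-05), with 0.40 to 0.56 in the 4 libraries. Both were also called higher with the median of all genes set equal between the sets, an alternative that moved the median gene from 0.20 to −0.07 and turned the calls over all genes from 6300 higher and 544 lower to 1534 higher and 3656 lower. Myc was at 0.45 (SE 0.07, adjusted p = 0.0011) and at 0.18 with medians equal (adjusted p = 0.073), so its call depended on the scaling.

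The 2 inhibitors called higher in Mki67-detected cells differed least from the median gene. Cdkn2a passed the filter on low values only through B-MF, and its Mo-MF means (0.0019 to 0.0171) lay far below the added 0.1, so its difference is read for B-MF alone. It was at 0.21 (SE 0.04, adjusted p = 0.0014) over all libraries and at 0.25 (SE 0.04, adjusted p = 0.0015) in a fit of the 2 B-MF libraries, where Mki67-detected cells carried 1.22 and 1.30 times the Cdkn2a of the others. Without the mixed cluster, rich in both genes, that fit gave 0.21 (adjusted p = 0.003), with ratios of 1.14 and 1.29. Cdkn1b was at 0.22 (SE 0.04, adjusted p = 0.0022), and with medians equal Cdkn2a and Cdkn1b were just below 0 (−0.06 and −0.05, not called). Cdkn1a was at −0.09 as measured (adjusted p = 0.124), at −0.19 in the B-MF libraries alone (adjusted p = 0.0053) and was lower, at −0.37, with medians equal (adjusted p = 0.00072). Mdm2 was at 0.09 (adjusted p = 0.412) and −0.19 with medians equal, and its library values ran from −0.09 in B-MF 1 to 0.49 in Mo-MF 1. In Mo-MF 1, where a single cell held 201 Mdm2 counts, Mdm2 was detected in 59.3% of Mki67-detected cells and 61.0% of the others. Ccnd2 was below the level required for the test.

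By detection rather than mean, 22.8% and 18.9% of Mki67-detected B-MF cells held Cdkn2a against 12.9% and 11.8% of undetected cells. In Mo-MF, whose Cdkn2a over all cells was not told apart from background, the shares were 1.31% and 1.71% against 0.116% and 0.125%. These were higher in Mki67-detected cells of both libraries but rest on only 12 and 16 Cdkn2a-positive cells.

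Whether the Mki67 contrast differed between B-MF and Mo-MF was tested as an interaction. None of the 7 members passed (limma, threshold 0.05), 2 had an unadjusted p under 0.05, and 3.71% of all genes passed in either direction. Those 2 were Myc (0.67 and 0.54 against 0.18 and 0.43 in Mo-MF, interaction 0.30, SE 0.09, adjusted p = 0.141) and Cdkn1a (−0.16 and −0.23 against −0.02 and 0.04, interaction −0.20, SE 0.06, adjusted p = 0.144). Myc in Mo-MF lay near or below the added 0.1, which shrinks its difference there, and the plain ratios of Mki67-detected to undetected cells overlapped, at 1.75 and 1.57 in B-MF against 1.33 and 1.87 in Mo-MF. With a pseudocount of 1 both were called (adjusted p = 0.0124 and 0.0133), which for Myc is not read as a difference between the cultures. For Cdkn2a, also counted among the 7, the interaction test could not decide, since its Mo-MF means lay far below the added 0.1. Its plain ratios were 1.22 and 1.30 in B-MF against 7.08 and 5.87 in Mo-MF, the latter resting on 15 and 24 counts. In the lists, 2 of 4 CDK inhibitors (Cdkn2c and Cdkn3), 3 of 14 cyclins and CDKs (Ccnb1, Ccnb2 and Cdk1) and 8 of 17 proliferation genes other than Mki67 had a smaller difference in B-MF, and no pathway gene was called with a larger one. Cdkn1c was also called (interaction −0.88, adjusted p = 0.0093) but with opposite directions, at −0.25 and −0.50 in B-MF against 0.36 and 0.64 in Mo-MF, and its B-MF means (0.051 to 0.138) lay near or below the added 0.1.

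The lists in this contrast described the cells that were split. All 17 proliferation genes other than Mki67, 13 of 14 cyclins and CDKs, 11 of 11 Rb and E2F genes and 18 of 18 MYC targets were higher in Mki67-detected culture cells, with medians of 2.19, 0.63, 0.63 and 0.47, beside the 70.1% of all genes called higher. With medians equal these counts became 17, 10, 7 and 10, while all genes went to 1534 higher and 3656 lower. In the CDK inhibitor list 3 of 4 were higher, with Cdkn3 at 2.80, Cdkn2c at 1.86 and Cdkn2d at 1.38, all above the median gene. The p53 list had 9 of 21 higher, 3 lower and a median of 0.09, below that of all genes (0.20), and with medians equal 1 was higher and 15 lower. The Myc network had 3 of 8 higher and 3 lower as measured, and 0 higher and 6 lower with medians equal. The antiproliferative gene Btg2 was the lowest of the p53 list at −0.44 (adjusted p = 7.2e-05), named here after its value was seen.

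**Figure D3:**
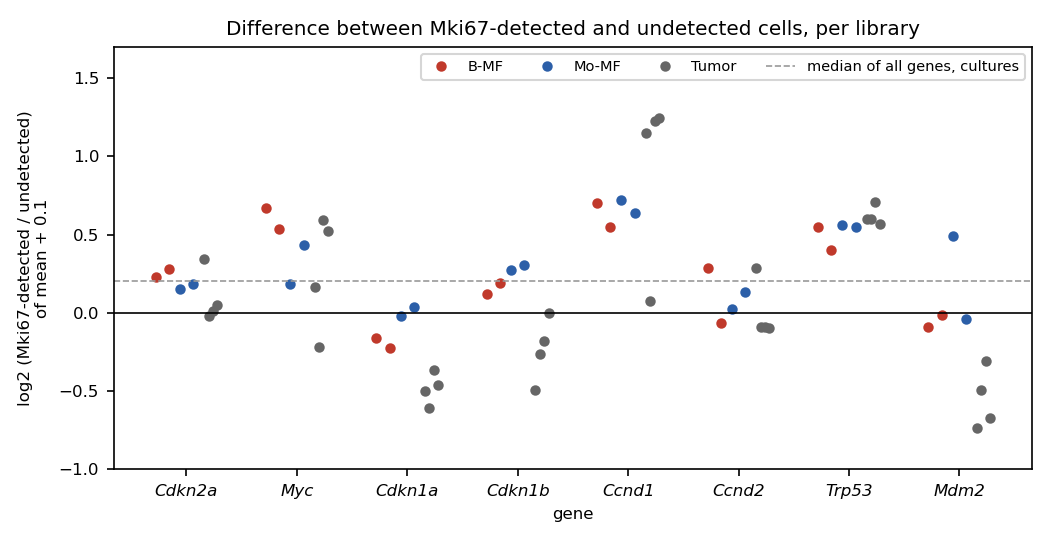
Log2 difference between cells with and without a Mki67 count (vertical axis, mean corrected count plus 0.1) for each of the 8 genes, one point per library. Ccnd1 and Trp53 lay above 0 in all 8 libraries, with Ccnd1 near 0 in Tumor 3 (0.08), and Cdkn1a lay below 0 in both B-MF and all 4 tumor libraries, while the dashed line marks the culture median of all genes (0.20).

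In tumor cells without the named clusters of other types (105 to 200 Mki67-detected cells per library), the calls rested in part on 1 cluster. Of 6 members tested, 2 were higher and 2 lower, against 20.4% of 6719 genes higher and 14.4% lower, with a median gene at 0.02. Trp53 was higher in each library (0.56 to 0.71, fit 0.62, SE 0.08, adjusted p = 0.00096). Ccnd1 was higher at 1.15, 1.23 and 1.25 in Tumor 2, 4 and 5 and at 0.08 in Tumor 3 (fit 0.93, SE 0.18, adjusted p = 0.0062), and was not called without Tumor 5 (adjusted p = 0.0503). The C1q-high cluster, rich in both Ccnd1 and Mki67, held 25.8% of the Mki67 counts of all tumor cells, with 46 cells in Tumor 3 and 103 to 337 in the other libraries. A further 23.1% lay in a monocyte/macrophage-like cluster of 52 cells led by histone genes, Top2a and Mki67, of which 27 came from Tumor 3 and which held 0.019 Ccnd1 counts per cell. Without that small cluster the same 4 members were called, and Ccnd1 was at 0.40 in Tumor 3 and 1.18 to 1.35 in the other libraries (fit 1.07, adjusted p = 0.0013). When the C1q-high cluster was left out (85 to 107 Mki67-detected cells per library), 1 member was higher and 0 lower, and calls over all genes fell from 1372 higher and 969 lower to 578 and 266. Trp53 was then still higher (0.41, SE 0.10, adjusted p = 0.034) and Ccnd1 was at 0.07 (SE 0.17, adjusted p = 0.785). In the monocyte/macrophage-like clusters alone, which leave out the unnamed clusters, the same 4 members were called, with Trp53 at 0.48, Ccnd1 at 0.79, Cdkn1a at −0.41 and Mdm2 at −0.59 (adjusted p = 0.0043, 0.0164, 0.0098 and 0.0042).

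Cdkn1a and Mdm2, both p53 targets, were lower in Mki67-detected tumor cells, calls that were lost without the C1q-high cluster, which was low in both genes (2.11 and 0.559 counts per cell). Cdkn1a was at 4.76, 4.44, 5.41 and 5.62 counts per cell in the detected cells of Tumor 2 to 5 and 6.79, 6.81, 6.99 and 7.78 in the others, which did not overlap (log2 −0.48, SE 0.08, adjusted p = 0.0035). Mdm2 differed by −0.31 to −0.74 (fit −0.55, SE 0.10, adjusted p = 0.0037). Without that cluster both were still below 0 and neither was called, with Cdkn1a at −0.27 (SE 0.10, adjusted p = 0.116) and Mdm2 at −0.34 (SE 0.10, adjusted p = 0.057). The direction of the 4 calls with all clusters was the same with medians equal. Cdkn1b was at −0.49, −0.27, −0.18 and −0.004 in Tumor 2 to 5 (fit −0.24, adjusted p = 0.096) was called with medians equal (−0.32, adjusted p = 0.026) and was at −0.04 without the C1q-high cluster. Ccnd2 was at 0.002 (adjusted p = 0.989), and at 0.37 (adjusted p = 0.0187) when cells of other types, among them the Ccnd2-rich T/NK-like and dendritic-like cells, were kept, and at −0.39 (adjusted p = 0.104) without the C1q-high cluster. Myc and Cdkn2a were below the level required. In the p53 list 5 of 15 genes were lower and 1 higher, while 14 of 16 MYC targets, 17 of 17 proliferation genes other than Mki67, 7 of 12 cyclins and CDKs, 3 of 6 Rb and E2F genes and 2 of 2 CDK inhibitors were higher and 3 of 8 Myc network genes were lower. Without the C1q-high cluster 1 of 15 p53 genes was lower and 1 higher, 9 of 16 MYC targets, 15 of 16 proliferation genes, 5 of 12 cyclins and CDKs, 1 of 4 Rb and E2F genes and 2 of 2 CDK inhibitors were higher, and 1 of 8 Myc network genes was lower.

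ATAC-seq was used to ask whether chromatin near the members differed in B-cell precursors, which were not the cells used for scRNA-seq. In mm10 the inhibitor genes lie at chr4:89274471-89294653 (Cdkn2a, minus strand), chr17:29090976-29100727 (Cdkn1a, plus) and chr6:134920401-134925513 (Cdkn1b, plus). Trp53 lies at chr11:69580359-69591873 (plus), Mdm2 at chr10:117688875-117710758 (minus), Myc at chr15:61985391-61990374 (plus), Ccnd1 at chr7:144929931-144939925 (minus) and Ccnd2 at chr6:127125162-127152193 (minus). Peaks were counted within each gene and 20 kb to either side, from the 43407 strongest peaks of each list (list length 43407 to 76530). The cut gives all libraries the same number of peaks, but it drops more of the weaker peaks in BM, where lists were longer. Between BM and spleen, 4 of 8 members passed an exact two-sided permutation test adjusted over all 34190 genes, 2 with more peaks in BM and 2 with more in spleen, and within 5 kb only Ccnd2 passed (difference −2.33, adjusted p = 0.0137). The test took CSF1R+ and CSF1R− libraries of an organ as separate samples. Whether they came from the same mice is not given in the sources used here. Over all genes 15.7% had more in BM and 16.0% more in spleen.

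Near Cdkn2a every BM library had 4 peaks and the spleen libraries had 3, 2, 3, 3, 3 and 4 (difference 1, adjusted p = 0.048, exact permutation). Peaks at the Cdkn2b, ARF and p16INK4a starts were in the full lists of all 12 libraries. A region downstream of the gene (chr4:89272259-89272990, in Gm12606) was in the full lists of 6 BM and 2 spleen libraries. Cdkn1a had 6, 4, 7, 6, 5 and 6 peaks in BM and 3, 4, 4, 3, 3 and 3 in spleen (difference 2.33, adjusted p = 0.029, exact permutation), with a value of 4 in both tissues. No difference remained within 5 kb of Cdkn1a, and 2 of its BM peaks lay in the neighbouring gene Rab44 (chr17:29115942-29116364 and chr17:29118122-29118450), each in 6 BM and 0 spleen libraries, at median BM ranks of 38367 and 44488.5, near or past the length of the shortest spleen list.

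Myc and Ccnd2 had more peaks in spleen. Myc had 3, 3, 3, 5, 4 and 3 in BM and 7, 5, 6, 4, 6 and 7 in spleen (difference −2.33, adjusted p = 0.044, exact permutation), and was not called with lists at full length (−1.5, adjusted p = 0.092, exact permutation). Among its spleen peaks was a region at −3765 bases from the start (chr15:61981319-61981875, in Gm37947) that was present in 6 spleen and 0 BM libraries. Ccnd2 had 7, 6, 6, 6, 6 and 7 against 9, 8, 9, 8, 9 and 9 with no overlap (difference −2.33, adjusted p = 0.011, exact permutation), and with lists at full length the difference was 1.0, in the other direction, and not called. An exon region of Ccnd2 (chr6:127149115-127150058) was in the full list of every library. Its BM ranks (54915 to 74358) lay past the cut and its spleen ranks (31408 to 40677) within it, so it was counted in spleen only. Ccnd1 leaned to BM (6.33 ± 0.52 against 4.5 ± 1.38, SD, n = 6, exact permutation adjusted p = 0.085). A region downstream of Ccnd1, 11052 bases past its start and in the gene LTO1 (chr7:144928479-144929029), was found in 6 BM and 0 spleen libraries. Leaving out the spleen CSF1R− 1 library, with 7 peaks, put Ccnd1 past the threshold (2.33, adjusted p = 0.0115, exact permutation). Cdkn1b (difference −1), Trp53 (−0.50) and Mdm2 (0.67) were not called, although Cdkn1b was without the BM CSF1R+ 3 or the spleen CSF1R+ 1 library (adjusted p = 0.0436 and 0.0468, exact permutation) and Mdm2 was with lists at full length (2.5, adjusted p = 0.0080, exact permutation).

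**Figure D4:**
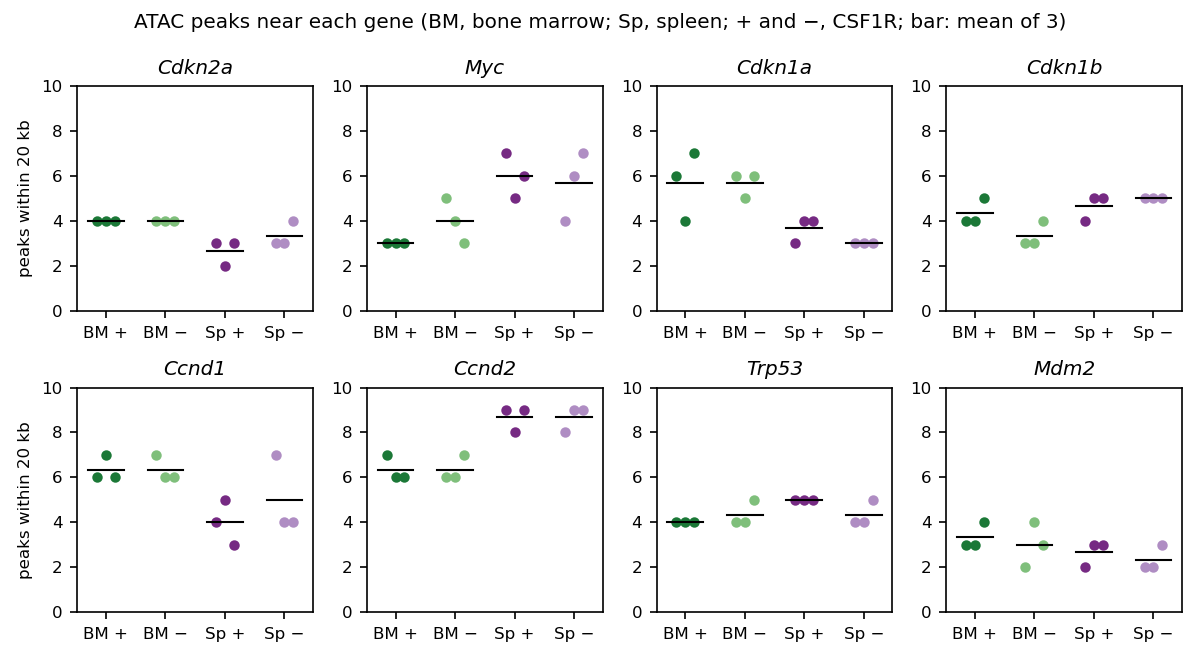
Number of ATAC peaks within 20 kb of each gene (vertical axis) in 3 libraries each of BM CSF1R+, BM CSF1R−, spleen CSF1R+ and spleen CSF1R− precursors, with a bar at each mean. With lists cut to the same length, BM and spleen separated for Ccnd2, with more in spleen. The CSF1R+ and CSF1R− points of a tissue overlapped for all 8 genes.

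CSF1R+ and CSF1R− precursors, the comparison for which the ATAC-seq was made, overlapped at these genes. In BM 0 of 8 members had groups that did not overlap, against 2.84% of all genes, and in spleen 0 of 8, against 1.67%. With 3 libraries against 3 no exact p below 0.1 is possible, so counts alone are given.

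At the promoters themselves, peaks were described by their order in their own list, where 1 is the first. The spleen lists were shorter, so order is also given as a percentage of list length. Over 11729 starts with a peak in all libraries, 16.7% came earlier in the BM lists with no overlap and 19.4% earlier in the spleen lists. By percentage of list length 46.3% came earlier in BM and 4.25% in spleen, and by fold enrichment 5.17% were higher in BM and 24.6% in spleen, so a separation by percentage in favour of BM or by fold in favour of spleen was common. The ARF start ranked 14785 to 20514 in BM and 20651 to 25214 in spleen, without overlap (21.9% to 29.6% and 41.1% to 56.7% of list length), but its fold enrichment overlapped, at 10.6 to 12.7 and 9.64 to 14.5. The p16INK4a start came later in both, at 27358 to 39020 and 35409 to 45114, with overlap, but it separated as a percentage of list length (40.3% to 51.0% in BM and 72.1% to 98.6% in spleen) and in fold enrichment, which was higher in BM (7.56 to 10.3 and 4.18 to 7.27). The Cdkn2b start also separated by order, at 7212 to 10190 in BM and 10983 to 13759 in spleen, with overlapping fold enrichment (15.4 to 17.3 and 14.2 to 16.8). Every library thus ranked the ARF promoter above the p16INK4a promoter, the 2 sequences printed above.

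The promoter peaks that came first among the members were those of Mdm2 (2183 to 3779 in BM, 3493 to 4724 in spleen) and Cdkn1b (2558 to 3587 and 2200 to 2748), both with overlap in rank. As a percentage of list length Mdm2 separated (2.98% to 4.94% in BM and 7.72% to 9.62% in spleen) and Cdkn1b overlapped (3.49% to 5.18% and 4.37% to 6.31%). Fold enrichment was higher in spleen without overlap for both, at 15.9 to 18.4 and 18.9 to 22 for Mdm2 and 10.1 to 11.2 and 12.9 to 15.9 for Cdkn1b. A pair of starts had lower rank numbers in spleen without overlap, an inner Myc start (16143 to 24021 in BM, 11271 to 12553 in spleen) and a Ccnd2 start (14487 to 24565 and 10083 to 13508). As percentages of list length both overlapped, at 23.8% to 31.4% and 22.4% to 28.2% for Myc and 18.9% to 36.2% and 20.6% to 29.9% for Ccnd2. Fold enrichment overlapped for Myc (4.78 to 6.26 and 5.9 to 6.96) and was higher in spleen without overlap for this Ccnd2 start (5.23 to 6.71 and 7.01 to 9.15). The other Ccnd2 start went the opposite way, with fold enrichment higher in BM without overlap (4.598 to 5.498 and 3.552 to 4.406). Its ranks overlapped (21598 to 27918 and 24361 to 31514), and it came earlier in BM by percentage of list length (28.2% to 41.1% and 49.8% to 69.7%). Promoter peaks of Ccnd2 thus did not favour spleen at both starts. At Cdkn1a the peak was at the inner start in all 12 libraries (22217 to 34952 and 17841 to 22503), and none of the 12 had a peak within 1000 bases of the outer start that carries the p53 element. The Trp53 start had a peak in all 12 (16573 to 22227 and 15444 to 19801), and the Ccnd1 start had one in 6 BM and 2 spleen libraries.

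**Figure D5:**
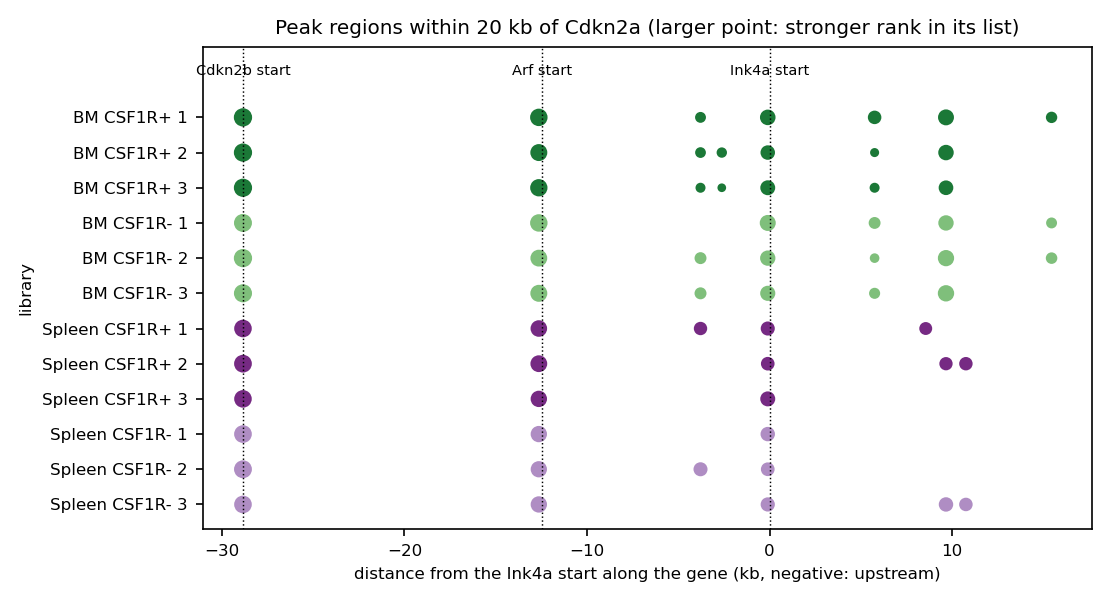
Position of ATAC peak regions within 20 kb of Cdkn2a (horizontal axis, kb from the Ink4a start, that of the p16INK4a transcript, along the gene, negative upstream) in each of the 12 libraries, with larger points for peaks that rank stronger in their list. All 12 libraries had peaks at the Cdkn2b, ARF and p16INK4a starts, and the region between 5 and 6 kb past the start was found in the 6 BM libraries at a median rank of 63137.5, beyond the end of each spleen list.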

How the data were processed

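The scRNA-seq tables hold, as deposited by the authors, the natural log (ln) of 1 plus a count corrected for depth with SCTransform, made after Cell Ranger counting of Chromium 3′ libraries. Exponentials minus 1 lay within a relative tolerance of 1e-06 of a whole number for all values. The tables are not raw counts, so no count model was used. For ATAC-seq the authors trimmed reads (cutadapt), aligned them to mm10 (BWA), removed duplicates and called peaks per library with MACS2. The deposited peak lists give a fold enrichment over background and the −log10 of p and q values, without read counts, so the depth behind each list is unknown.

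Library means of corrected counts, as log2(mean + 0.1), were compared with limma 3.58.1 in R 4.3.3. Genes whose mean was under 0.1 were left out, p-values were adjusted by Benjamini-Hochberg over every gene tested, and the threshold was 0.05. Cells are not replicates and libraries are. The tumor libraries came from 4 mice, and those of the cultures may be technical replicates. Cells with and without Mki67 were averaged per library and compared with the library as a block. Cells were clustered without the 8 genes and Mki67 (leidenalg 0.10.2). No doublet caller was run. Peak counts were tested with an exact two-sided permutation test. The steps were tested on simulated data. Alternatives changed the pseudocount, filter, scaling, Mki67 rule, cells, libraries, peak window and list length.

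The columns of the 4 tumor libraries are numbered 2 to 5 and could not be matched to single sample titles, so they are called Tumor 2 to Tumor 5. The members and gene lists were chosen with earlier results of these data known. Genes named beyond the members were up to 3 per list with the largest called difference between B-MF and Mo-MF, Mki67, and the 3 most alike to each member across B-MF cells. Genes named outside this rule were chosen after their values were seen, among them Cdkn2b, Cdkn2d, Btg2 and the genes that lead clusters or passed the interaction test.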

Additional observations from a re-analysis of the deposited data

Results flagged for a closer look

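Among 33 groups of libraries examined for a sample apart from the rest, 4 held one, and chance alone gives about 1 in 20 for continuous values. That rate does not hold for peak counts, where a library differing by 1 from otherwise equal counts is always flagged. Ccnd1 in Tumor 3 differed between Mki67-detected and undetected cells by 0.08 on the log2 scale (0.0777), where the other 3 tumor libraries lay between 1.15 and 1.25. Ccnd2 in Tumor 2 differed by 0.287, where the other 3 lay between −0.10 and −0.09. Near Cdkn1b, the spleen CSF1R+ 1 library had 4 ATAC peaks and the other 5 spleen libraries had 5 each. Near Trp53, the BM CSF1R− 3 library had 5 peaks and the other 5 BM libraries had 4 each.

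On the scale as measured, Cdkn1b went opposite ways in culture and in tumor. Mki67-detected cells were higher in both B-MF libraries (mean difference 0.155) and both Mo-MF libraries (0.290) and lower in all 4 tumor libraries (−0.236), where Tumor 5 was near 0 at −0.004. With the medians of all genes set equal both fits were below 0, at −0.05 in culture and −0.32 in tumor. Without the C1q-high cluster the tumor fit was −0.04. The difference between culture and tumor was not tested, because the 2 tables were corrected separately.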

How the results depend on the processing

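For B-MF against Mo-MF, the 32 pathway genes called higher became 19 with no filter on low values, 18 with a minimum mean of 0.5 and 17 to 52 as single libraries were left out (52 without B-MF 2, 20 without Mo-MF 1, 17 without Mo-MF 2), and the 12 called lower became 8 to 30 (30 without B-MF 1). Fewer genes and fewer samples enter those fits. Without cells of other types Mxd1 became 0.146 and Hmgb2 0.0569. With the replicate block 35 were higher and 15 lower. The correlation of same-numbered libraries was 0.126 in culture, from 2 pairs only, and 0.0038 to 0.155 in ATAC-seq, so the numbers are not taken to pair libraries.

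In the cultures, the 5 members called higher in Mki67-detected cells became 3 with a minimum mean of 0.5 and 2 both with medians equal and with thinned cells, and stayed 5 as libraries were left out. Those called lower went from 0 to 1, Cdkn1a, with equal totals, medians equal, Top2a in place of Mki67 or in the B-MF libraries only (with or without the mixed cluster, 1 each), and to 0 to 1 as libraries were left out (1 without Mo-MF 2). With medians equal Cdkn2a turned to −0.0629, Cdkn1b to −0.0526 and Mdm2 to −0.186, and Mdm2 was −0.00085 with Top2a, −0.0518 in the B-MF libraries only, −0.0579 in these without the mixed cluster and −0.0469 to 0.148 as libraries were left out.

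For the interaction, the 0 members called became 1 higher with a pseudocount of 1 and 1 lower with a pseudocount of 1 or 0.01, with at least 2 Mki67 counts or with Top2a, and 0 to 1 lower as libraries were left out (1 without Mo-MF 2). Signs turned for Cdkn2a (−0.69, pseudocount 0.01), Myc (−0.11, Top2a), Cdkn1b (0.0356 with Top2a, 0.304 thinned), Trp53 (0.16, thinned) and Ccnd1 (0.0737 with pseudocount 1, 0.184 with at least 2 Mki67 counts, 0.143 thinned, −0.132 to 0.0212 as libraries were left out).

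In tumor, the 2 members called higher became 1 with no filter or a minimum mean of 0.5 and 1 to 2 as libraries were left out (1 without Tumor 5). Without the C1q-high cluster 1 was called higher and the 2 called lower became 0. Ccnd2 turned to −0.0072 (pseudocount 0.01), −0.0040 (equal totals), −0.0788 (medians equal), −0.264 (thinned), −0.391 (without the C1q-high cluster), −0.0436 (monocyte/macrophage-like clusters only) and −0.093 to 0.0351 as libraries were left out, none of them called. With medians equal, all calls in tumor went from 1372 higher and 969 lower to 1017 and 1501.

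For ATAC-seq between BM and spleen, the 4 members called became 1 within 5 kb, 0 with the replicate block and 4 to 5 as libraries were left out. The 0 with the replicate block cannot be read, since that sign-flip test over pairs has few possible p-values. It could call a gene only if most genes reached the smallest of them. With full lists Cdkn1b became 0.5, Ccnd2 1.0 and Trp53 0.67. Members whose CSF1R+ and CSF1R− libraries did not overlap went from 0 to 1 in BM with the replicate block, to 0 to 2 in BM (2 without BM CSF1R− 3) and to 0 to 1 in spleen (1 without spleen CSF1R+ 1 or CSF1R− 3) as libraries were left out. The cause of these changes was not tested where none is named. Setting medians equal, leaving out the mixed, the C1q-high or the Mki67-led tumor cluster, using the B-MF libraries or the monocyte/macrophage-like tumor clusters only and leaving out other cell types in the culture Mki67 fits were chosen after seeing the data.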
